A study of Homo sapiens with 18 samples.

Results

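Proneural basic helix-loop-helix (bHLH) genes encode transcription factors that commit cells to neuronal, glial or endocrine fates. The 9 genes described here, ASCL2, NEUROD1, NEUROD2, NEUROG1, NEUROG2, NEUROG3, ATOH1, OLIG2 and HES6, were chosen by name from 20037 protein-coding RefSeq genes. Each was examined from 10 kb upstream to 10 kb beyond its end on GRCh38, a stretch called its window below. The cells were V16D, a castration-resistant prostate cancer line derived from LNCaP, grown in medium with fetal bovine serum. V16D/CTL cells carried a control lentiviral vector, and V16D/H19 cells carried a lentivector that overexpresses the long non-coding RNA H19 from a CMV promoter, so both groups had been transduced. Chromatin immunoprecipitation sequencing (ChIP-seq) for H3K4me3 and for H3K27me3 was done on 3 biological replicates of each group, each with an input library, giving 12 peak lists. The comparison addresses whether H19 overexpression was accompanied by altered histone marks at these genes.

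H3K4me3, trimethylation of histone H3 on lysine 4, marks promoters that are active or able to become so. H3K27me3, deposited by Polycomb repressive complex 2, marks developmental genes held silent. Promoters that carry both marks are called bivalent, and genes of lineage-specifying transcription factors are a classic group with this state. Proneural factors bind DNA at E-boxes as dimers with E proteins, are blocked by ID proteins, and are repressed by HES and HEY factors downstream of Notch, while HES6 is known to counteract HES1. Neuroendocrine prostate cancer, a form that can arise from castration-resistant disease, expresses several neural transcription factors.

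The promoters of 5 genes, one for each arrangement of marks described below, are shown first. Each sequence is the 250 bases upstream of the transcription start in the RefSeq promoter table of GRCh38.p14, written 5′ to 3′ on the gene's own strand, and capitals mark E-boxes (CANNTG, searched on both strands). HES6 (chr2:238240039-238240288, minus strand) carried H3K4me3 without H3K27me3, and NEUROG1 (chr5:135535965-135536214, minus strand) carried both marks in some libraries. NEUROG2 (chr4:112516181-112516430, minus strand) carried both within 1 kb of the start in all libraries. Its printed bases lay outside the H3K4me3 peaks in V16D/CTL replicate 3 and V16D/H19 replicates 1 and 3. They lay outside the H3K27me3 peaks in V16D/H19 replicate 2. NEUROG3 (chr10:69573423-69573672, minus strand) and NEUROD2 (chr17:39607921-39608170, minus strand) carried H3K27me3 without promoter H3K4me3, over separate peaks and a broad domain respectively.
HES6: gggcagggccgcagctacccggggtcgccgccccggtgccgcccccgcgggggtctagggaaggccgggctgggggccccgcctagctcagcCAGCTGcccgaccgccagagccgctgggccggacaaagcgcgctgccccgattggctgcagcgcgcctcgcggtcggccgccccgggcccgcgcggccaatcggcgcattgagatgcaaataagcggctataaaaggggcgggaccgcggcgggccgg
NEUROG1: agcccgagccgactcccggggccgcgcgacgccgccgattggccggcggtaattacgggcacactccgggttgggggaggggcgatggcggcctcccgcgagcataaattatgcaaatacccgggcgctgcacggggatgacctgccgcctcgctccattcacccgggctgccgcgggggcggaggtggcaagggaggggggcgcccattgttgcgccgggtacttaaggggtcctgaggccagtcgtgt
NEUROG2: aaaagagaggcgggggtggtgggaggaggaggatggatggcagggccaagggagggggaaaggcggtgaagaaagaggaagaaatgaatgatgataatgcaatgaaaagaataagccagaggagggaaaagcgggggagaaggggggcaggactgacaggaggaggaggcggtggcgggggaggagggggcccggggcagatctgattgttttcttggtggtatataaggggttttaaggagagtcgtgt
NEUROG3: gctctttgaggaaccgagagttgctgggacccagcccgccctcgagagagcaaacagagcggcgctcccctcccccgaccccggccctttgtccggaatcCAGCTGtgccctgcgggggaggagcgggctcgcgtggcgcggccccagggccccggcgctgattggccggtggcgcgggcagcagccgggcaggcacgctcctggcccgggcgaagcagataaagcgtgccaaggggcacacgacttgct
NEUROD2: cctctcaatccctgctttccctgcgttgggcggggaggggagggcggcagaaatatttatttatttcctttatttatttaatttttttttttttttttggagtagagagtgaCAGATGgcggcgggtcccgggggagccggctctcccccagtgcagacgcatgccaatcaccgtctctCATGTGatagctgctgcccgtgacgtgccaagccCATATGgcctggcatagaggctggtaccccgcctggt
Of the 9 genes, 7 had an entry in the table, the others being ASCL2 and OLIG2. HES6 held 35 CpG dinucleotides in these 250 bases, more than 94.2% of the 35116 promoters in the table had, and NEUROG1 held 30, more than 87.6% had. NEUROG3 held 25, NEUROD1 24, ATOH1 18, NEUROD2 12 and NEUROG2 7 CpG, beside a median of 11 over all promoters. A CANNTG was found in 4 of the 7 promoters and in 61.8% of all promoters. NEUROD2 had 3, starting 138, 71 and 37 bases before the transcription start. NEUROG3, HES6 and ATOH1 had 1 each, starting 150, 158 and 249 bases before it. Those of NEUROG3 and HES6 were CAGCTG, a form of CANNTG present in 14.0% of promoters.

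The 9 windows fell into distinct arrangements of the marks. HES6 carried strong promoter H3K4me3 and no H3K27me3 peak. NEUROD1 and NEUROG3 carried H3K27me3 and no H3K4me3 peak in any of the 6 libraries. NEUROD2 carried a broad H3K27me3 domain over the gene, called as 1 or 2 peaks per library, and its only H3K4me3 peak lay at the edge of the window. ASCL2, NEUROG2 and OLIG2 were bivalent in all 6 replicates. NEUROG1 and ATOH1 carried promoter H3K4me3 in all 6 libraries and H3K27me3 in some only. A missing peak means that the authors' caller reported none, not that the mark was absent.

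**Figure D1:**
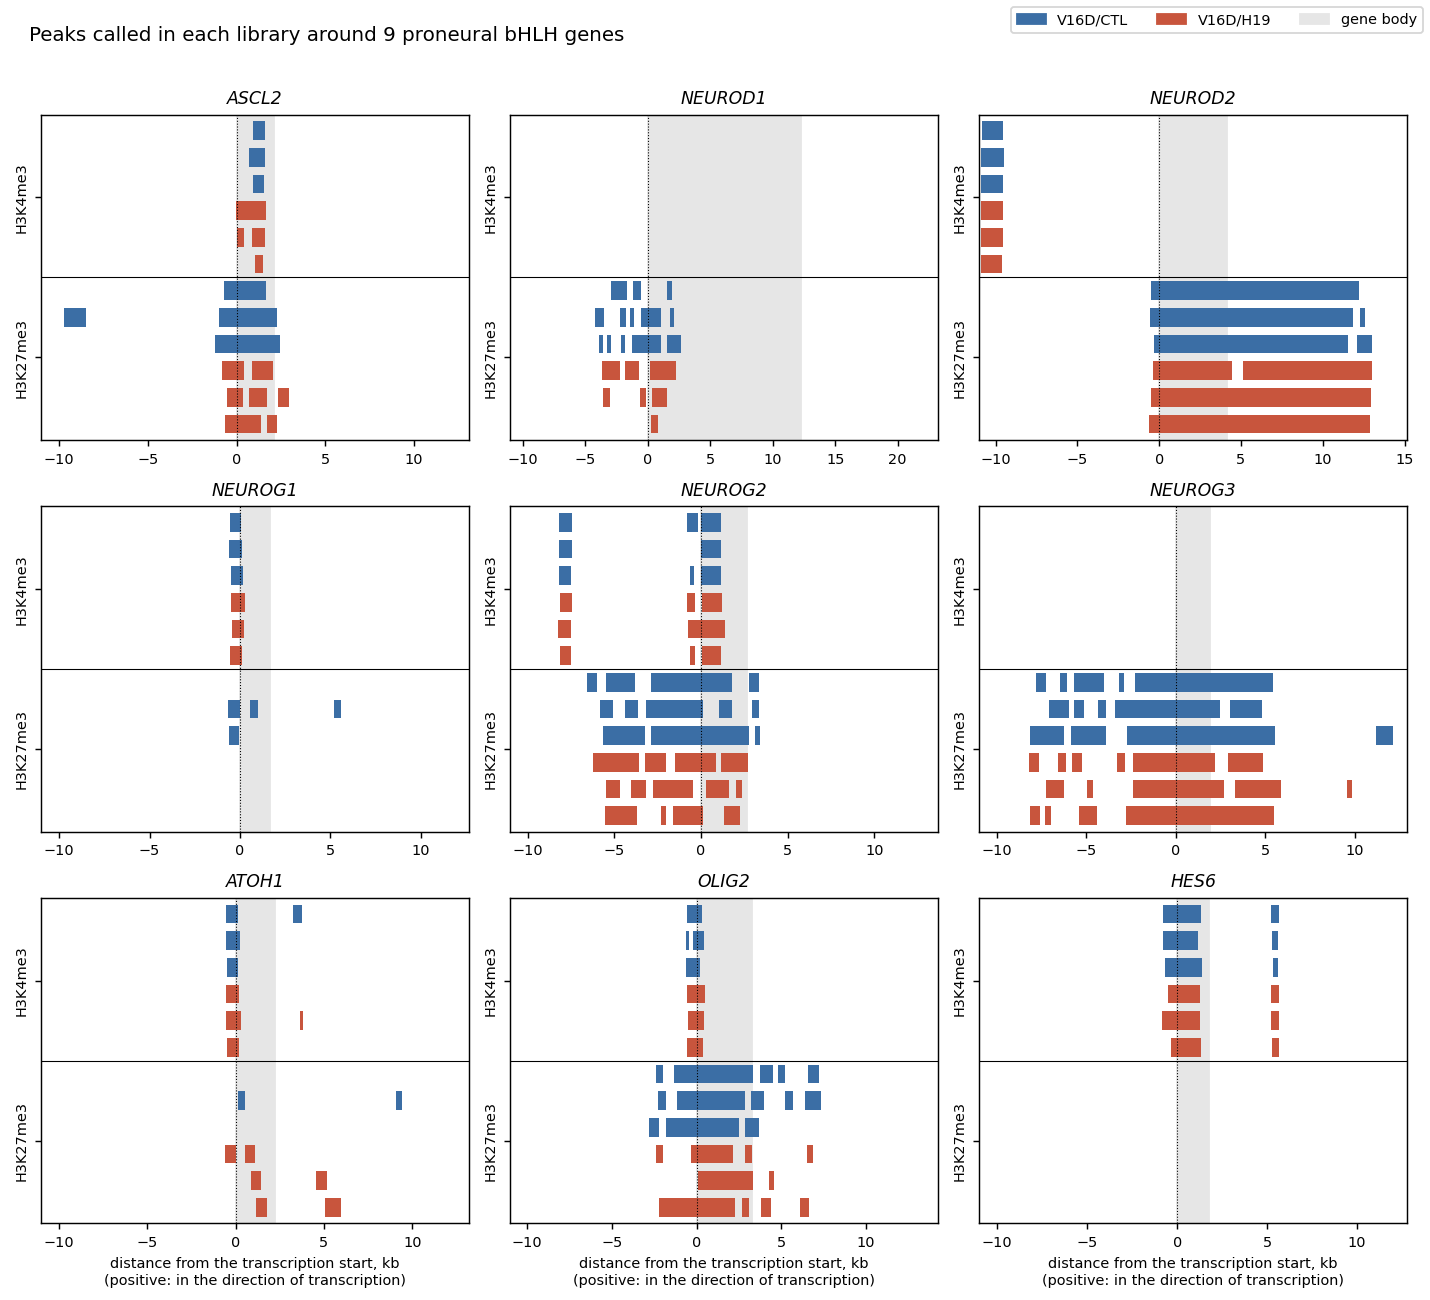
Peaks of H3K4me3 (upper 6 rows of each panel) and H3K27me3 (lower 6 rows) in the V16D/CTL (blue) and V16D/H19 (red) libraries, replicates 1 to 3 from top to bottom, against the distance in kb from the transcription start, positive in the direction of transcription. The grey band is the gene body. HES6 has no H3K27me3 row filled, NEUROD1 and NEUROG3 have no H3K4me3 row filled, and NEUROG1 has H3K27me3 in V16D/CTL replicates 2 and 3 only.

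Most of these genes carried H3K27me3 at the promoter. A promoter peak (within 1 kb of the transcription start) of H3K27me3 was present in all 6 libraries at 6 of the 9 genes and at 6.44% of the 19675 protein-coding genes whose strand was known. In at least 1 library it was present at 8 of 9 genes and at 15.35% of all. For H3K4me3 the figures were 5 of 9 genes and 60.84% of all in all 6 libraries. A bivalent region, an overlap of an H3K4me3 with an H3K27me3 peak of the same replicate, occurred in all 6 replicates at 3 of 9 genes and at 3.75% of 20037 genes. These shares describe the chosen genes and were not tested.

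Per library, the number of the 9 genes with an H3K4me3 promoter peak was 6, 6 and 6 in V16D/CTL against 6, 6 and 5 in V16D/H19. With an H3K27me3 promoter peak it was 6, 8 and 7 in V16D/CTL against 7, 7 and 6 in V16D/H19. The number with a bivalent region was 3, 5 and 4 in V16D/CTL against 4, 3 and 3 in V16D/H19. The groups overlapped in each of these counts.

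H3K4me3 lists held 20048 to 21934 peaks covering 28.76 to 31.35 Mb. H3K27me3 peaks covered 45.06 to 62.17 Mb in V16D/CTL against 42.27 to 48.4 Mb in V16D/H19, and 0.91 to 0.97% of them in V16D/CTL but 0.25 to 0.3% in V16D/H19 reached a −log10 q of 5. The fold over input was not scaled between libraries. In bulk cells, fewer marked cells and less mark per cell cannot be told apart. H3K4me3 promoter peaks were present in all 6 libraries at all 5 prostate luminal markers (KLK2, KLK3, TMPRSS2, KRT8 and KRT18), none of which had an H3K27me3 window peak. They were present at 0 of 3 basal, 0 of 3 stromal, 0 of 3 leukocyte and 0 of 2 endothelial markers in any library, and in all 6 at SYP and ENO2 of the 5 neuroendocrine markers. Some markers differed in cover without overlap, and their part in the values of the proneural genes was not tested. H3K27me3 cover was lower in V16D/H19 at KRT5 and TP63 of the 3 basal markers (means 1515 and 0 bases at KRT5, 3800 and 2019 at TP63) and at CHGB of the 5 neuroendocrine markers (11648 and 6578 bases). H3K4me3 cover was lower at luminal KLK2 (2785 and 2052 bases) and higher at luminal TMPRSS2 (6644 and 8557 bases). No library had a peak of either mark in the window of the endogenous H19 gene.

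In V16D/CTL, H3K27me3 was strongest and widest at NEUROD2 and NEUROG3. NEUROD2, a factor of cortical excitatory neurons, lies on chromosome 17 (39603768 to 39607920). Peaks covered 52.9%, 52.5% and 52.9% of its window in V16D/CTL against 52.4%, 55.7% and 55.9% in V16D/H19, and the groups overlapped. The consensus domain, joined from overlapping peaks of at least 2 replicates, spanned 13577 bases in V16D/CTL against 13614 bases in V16D/H19. Its limits were the outermost peak edges, and each library covered less, in 1 or 2 peaks. The domain ran from just upstream of the start to beyond the end of the gene. It ended short of the start of any other protein-coding gene. The strongest fold over input was 5.78, 6.40 and 7.09 in V16D/CTL against 5.07, 5.19 and 4.92 in V16D/H19. Every V16D/H19 library was below every V16D/CTL library, with means of 6.43 ± 0.657 and 5.06 ± 0.135 (SD, n = 3 each, exact permutation p = 0.1, two-sided). With 3 against 3 libraries 0.1 is the smallest p this test can give, and p-values here measure the spread among these replicates.

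NEUROG3, the initiator of endocrine differentiation in the pancreas, lies on chromosome 10 (69571485 to 69573422). Peaks covered 48.5%, 44.5% and 58.6% of its window in V16D/CTL against 39.3%, 42.4% and 45.8% in V16D/H19, and the groups overlapped. The strongest H3K27me3 fold over input was 5.82, 5.91 and 5.64 in V16D/CTL against 4.21, 4.71 and 4.33 in V16D/H19. The groups were apart, with means of 5.79 ± 0.137 and 4.42 ± 0.261 (SD, n = 3 each, exact permutation p = 0.1). In V16D/CTL the mean ranked above that of 96.3% of the 3506 genes with an H3K27me3 peak in all 6 libraries, and in V16D/H19 above that of 72.3%.

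NEUROG2, a determinant of cortical neurons, lies on chromosome 4 (112513516 to 112516180). Its strongest H3K27me3 fold was 5.18, 4.90 and 4.97 in V16D/CTL against 4.54, 4.41 and 3.86 in V16D/H19. The groups were apart here too (means 5.02 ± 0.147 and 4.27 ± 0.36, SD, n = 3 each, exact permutation p = 0.1). H3K27me3 covered 7470, 5985 and 8380 bases of its window in V16D/CTL against 7754, 5653 and 4775 in V16D/H19, which overlapped. The widest single peak measured 4658, 3315 and 5668 bases in V16D/CTL against 2624, 2298 and 1832 bases in V16D/H19. By this measure, chosen after seeing the data, 2 of the 6 genes with H3K27me3 in every library, NEUROG2 and ASCL2, were lower without overlap and 0 were higher, beside 19.7% and 1.34% of 3506 genes. The groups overlapped at NEUROD1, NEUROG3 and OLIG2, and at NEUROD2 the widest peak was 12774, 12359 and 11825 bases in V16D/CTL against 7872, 13462 and 13511 bases in V16D/H19. The H3K4me3 of NEUROG2 lay at the start and in a separate peak about 8 kb upstream. That upstream peak was called in all 6 libraries, and the window held no other protein-coding start.

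Groups apart in strongest fold were counted only after the values were seen, and the planned count, in covered length, is given below. In all, 3 of the 6 genes with an H3K27me3 peak in every library had a strongest fold that was lower in each V16D/H19 library than in each V16D/CTL library, and 0 had a higher one. Over all 3506 such genes the shares were 16.8% lower and 2.11% higher. After each library was centred on its median over these genes the shares were 7.22% and 5.99%, and NEUROD2, NEUROG2 and NEUROG3 remained the 3 lower genes. With the width-weighted mean fold, an alternative chosen after seeing the data, ASCL2 joined them and the share of all genes rose to 21%. OLIG2 joined them without V16D/H19 replicate 1, where the share of all genes was 25.7%.

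The model fitted across all genes (limma on the log2 strongest fold, Benjamini-Hochberg adjustment over 3506 genes) called none of these differences, which does not show that the groups were alike. NEUROG3 had a log2 difference of -0.39 (SE 0.095, adjusted p = 0.0885). NEUROD2 had -0.34 (SE 0.106, adjusted p = 0.157) and NEUROG2 -0.24 (SE 0.098, adjusted p = 0.29). The call rate at an adjusted p under 0.05 was 0% of all genes in either direction. Unadjusted p-values under 0.05 were found for 3 of the 6 proneural genes and for 479 genes, or 13.7%, overall. The log2 difference was below 0 at 5 of the 6 genes and at 73.1% of all genes, with medians of -0.19 and -0.08. After median centring it was smaller, at -0.317 for NEUROG3, -0.267 for NEUROD2 and -0.161 for NEUROG2 (limma adjusted p = 0.316, 0.465 and 0.675).

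**Figure D2:**
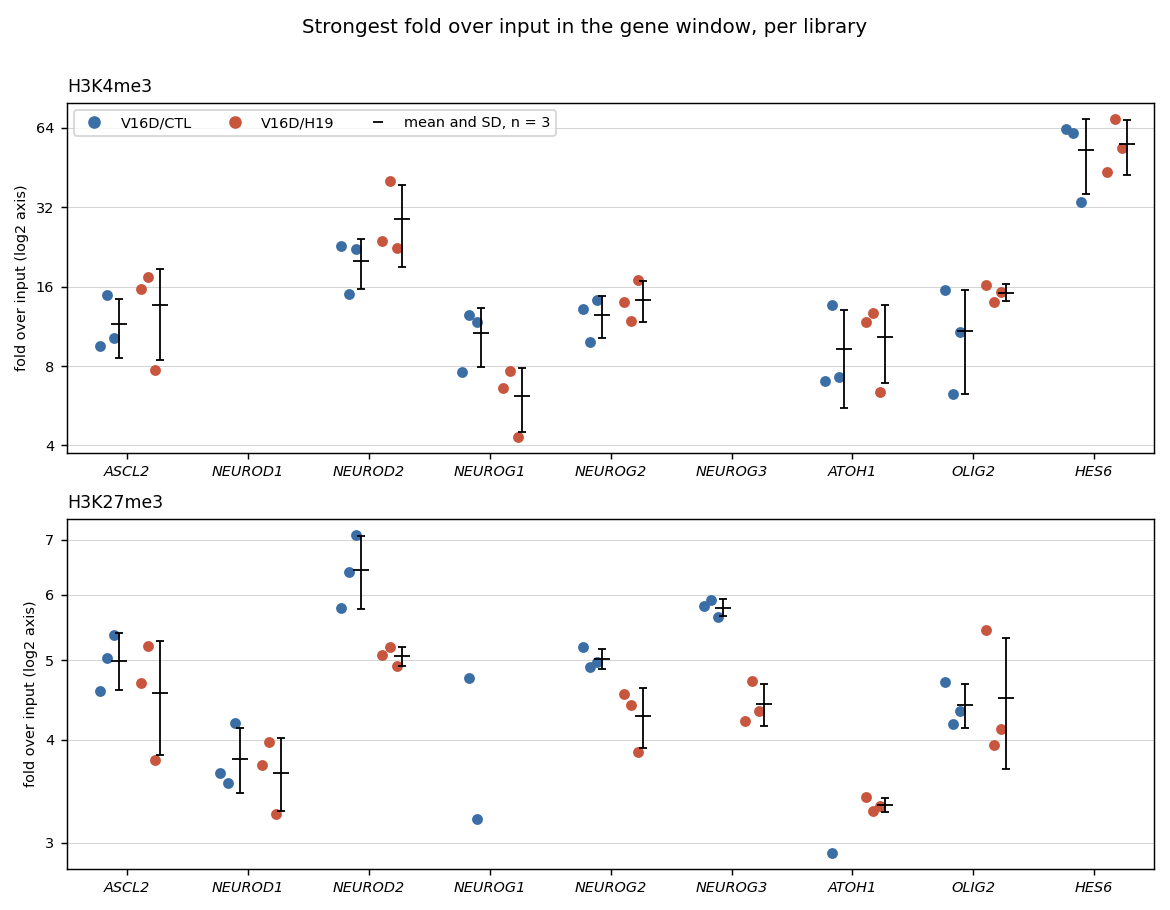
Strongest fold over input (log2 axis) of H3K4me3 (upper panel) and H3K27me3 (lower panel) in the window of each gene. Points are single libraries of V16D/CTL (blue) and V16D/H19 (red), shown where a peak was called, and black marks give the mean and SD where all 3 libraries of a group had a peak. The V16D/H19 points lie below all V16D/CTL points for H3K27me3 at NEUROD2, NEUROG2 and NEUROG3.

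A measure that was not planned, the highest −log10 q of the H3K27me3 peaks, was lower in every V16D/H19 library at NEUROG3, NEUROD2 and NEUROG2, 3 of 6 genes. It was read from the same peak lists as the strongest fold and is not independent of that fold. Over the 3506 genes it was lower at 26.4% and higher at 0.913%. At NEUROG3 the highest −log10 q of an H3K27me3 peak was 5.92, 6.91 and 6.43 in V16D/CTL against 3.09, 4.22 and 3.48 in V16D/H19. At NEUROD2 it was 6.03, 7.62 and 9.09 in V16D/CTL against 4.98, 5.09 and 4.64 in V16D/H19, and at NEUROG2 it was 4.6, 4.68 and 4.68 against 3.29, 3.05 and 2.63. With peaks under 5 left out, NEUROG3 thus kept its peak in 3 of 3 V16D/CTL and 0 of 3 V16D/H19 libraries, a pattern shared by 9.68% of the 1002 genes with such a peak. NEUROD2 kept it in 3 and 1, ASCL2 in 2 and 0, and the other 6 genes in none. H3K27me3 peaks of this strength were less frequent in the V16D/H19 lists as a whole (above), and the part of that in these values was not tested.

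The deposited tables of differential sites, restricted by the authors to an FDR of at most 0.05, held 2 H3K27me3 sites and 0 H3K4me3 sites annotated to the 9 genes. Both sites were promoter-annotated, and both had the lower concentration (the authors' log2 of the mean normalized reads) in V16D/H19. The NEUROG3 site (chr10:69567428-69581769, 14342 bases) had an authors' mean of 8.52 in V16D/CTL against 8.1 in V16D/H19. The ASCL2 site (chr11:2267615-2271821, 4207 bases) had 6.81 and 5.99. Among genes with an H3K27me3 window peak, 7.97% had a listed site that was lower in V16D/H19 and 0.608% one that was higher. For H3K4me3 these shares were 6.78% and 2.19%, beside 0 of the 7 proneural genes with such a peak.

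ASCL2, a regulator of intestinal stem cells and of the trophoblast, lies on chromosome 11 (2268498 to 2270588), 267.2 kb from the H19 gene. It was bivalent in all 6 replicates. H3K27me3 covered 2360, 4467 and 3665 bases of its window in V16D/CTL against 2470, 2574 and 2597 bases in V16D/H19, and the groups overlapped (exact permutation p = 0.4, n = 3 each). In V16D/CTL a single peak of 2360 to 3665 bases lay over the start and most of the gene in each library, whereas in V16D/H19 the widest peak measured 1239, 1031 and 2014 bases and the domain was called in 2 or 3 pieces. A narrower widest peak in every V16D/H19 library was also found at 19.7% of all 3506 genes, as given for NEUROG2. The strongest fold was 4.58, 5.03 and 5.37 in V16D/CTL against 4.68, 5.20 and 3.78 in V16D/H19, which overlapped (limma log2 difference -0.14, SE 0.115, adjusted p = 0.612).

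In V16D/CTL, H3K4me3 at ASCL2 lay inside the gene body rather than at the start. The mark covered 707, 896 and 639 bases in V16D/CTL against 1705, 1133 and 494 bases in V16D/H19. V16D/H19 replicates 1 and 2 were above all V16D/CTL libraries and reached the start itself, whereas replicate 3 was below them and had no peak within 1 kb of the start. The difference of 363 bases did not exceed the spread (exact permutation p = 0.4, n = 3 each), and was 66.2 bases without V16D/H19 replicate 1 and 672 bases without V16D/H19 replicate 3.

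OLIG2, a factor of motor neurons and oligodendrocytes, lies on chromosome 21 (33025935 to 33029185). Its H3K27me3 covered 6911, 6696 and 5755 bases in V16D/CTL against 3735, 3557 and 6086 bases in V16D/H19. Replicates 1 and 2 of V16D/H19 were lowest, but replicate 3 lay within the range of V16D/CTL (exact permutation p = 0.2, n = 3 each). Its strongest H3K27me3 fold averaged 4.40 and 4.50. Promoter H3K4me3 had a strongest fold of 15.6, 6.28 and 10.8 in V16D/CTL against 16.3, 14.0 and 15.3 in V16D/H19, which overlapped through V16D/CTL replicate 1 (limma log2 difference 0.57, SE 0.352, adjusted p = 0.863).

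NEUROD1, a factor of neuronal and endocrine cells, lies on chromosome 2 (181668295 to 181680517). Its H3K27me3 consisted of short peaks around the start covering 2337, 3565 and 4328 bases in V16D/CTL against 4627, 2199 and 573 bases in V16D/H19. V16D/H19 held both the highest and the lowest value. The strongest fold averaged 3.79 ± 0.345 and 3.65 ± 0.372 (SD, n = 3 each), the lowest mean of the 6 genes fitted in both groups. No H3K4me3 peak was called anywhere in its window.

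Ordered by the share of the window under H3K27me3 in V16D/CTL, NEUROD2 (52.8% ± 0.191, SD, n = 3) and NEUROG3 (50.5% ± 7.28) came first and overlapped each other. NEUROG2 (32.1% ± 5.33) and OLIG2 (27.8% ± 2.64) followed and also overlapped. ASCL2 (15.8% ± 4.81) and NEUROD1 (10.6% ± 3.12) came next, again overlapping, then NEUROG1 (3.26% ± 3.62) and ATOH1 (1.04% ± 1.80). HES6 was at 0 in all libraries. In V16D/H19 the first 6 kept this order of means, at 54.7%, 42.5%, 26.7%, 19.2%, 11.5% and 7.65%, whereas ATOH1, at 5.78%, was above NEUROG1, at 0. The median over the 7240 genes with an H3K27me3 window peak was 1.62% in V16D/CTL against 1.20% in V16D/H19.

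**Figure D3:**
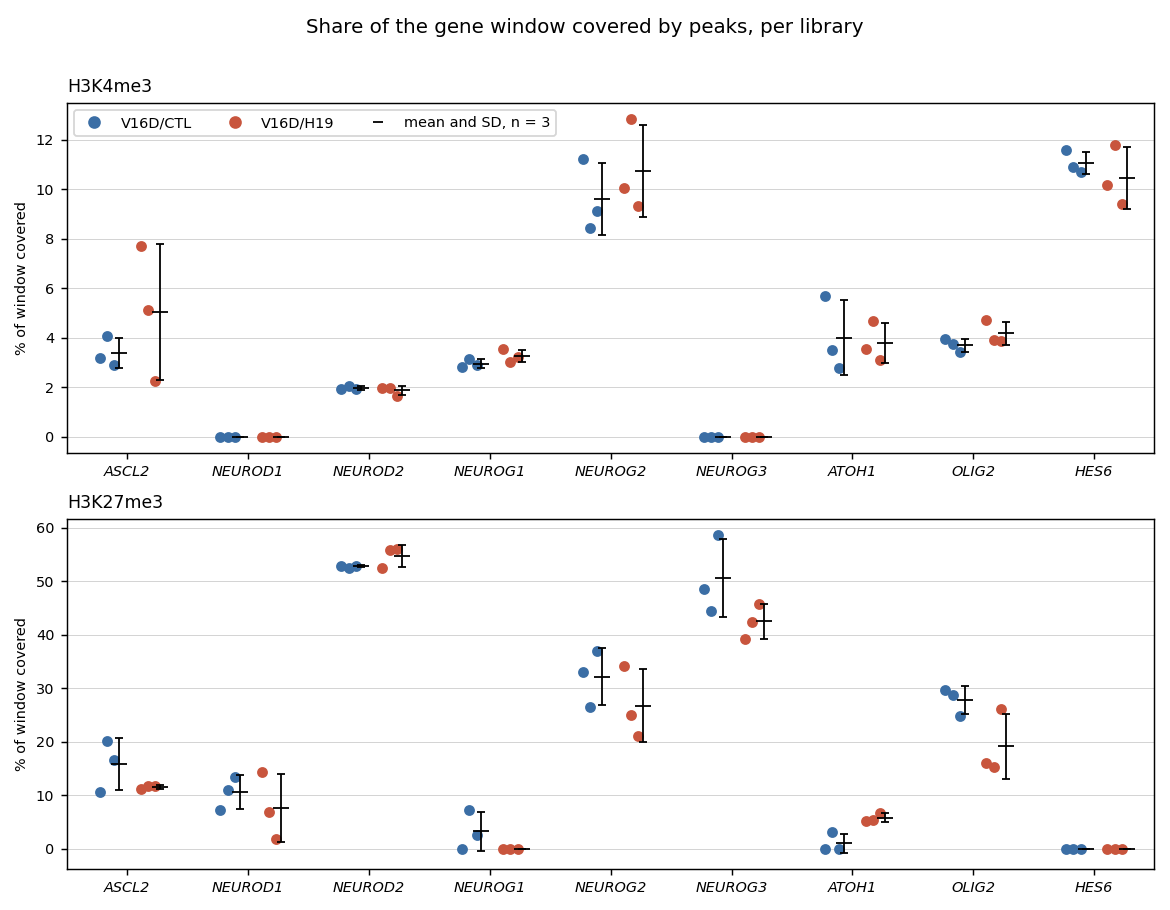
Percent of each gene's window covered by H3K4me3 (upper panel) and H3K27me3 (lower panel) peaks. Points are single libraries of V16D/CTL (blue) and V16D/H19 (red), black marks give the mean and SD (n = 3), and both axes are linear. ATOH1 is the gene whose V16D/H19 points all lie above its V16D/CTL points for H3K27me3.

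NEUROG1 and ATOH1 had the least H3K27me3 of the genes with this mark, and their group means differed in opposite directions. NEUROG1, a factor of sensory neurons, lies on chromosome 5 (135534282 to 135535964). H3K27me3 covered 0, 1552 and 566 bases of its window in V16D/CTL against 0 bases in each V16D/H19 library. V16D/CTL replicate 1 had no peak either, so the groups overlapped (exact permutation p = 0.4, n = 3 each). The promoter peak (chr5:135535938-135536623 in the consensus of V16D/CTL) overlapped H3K4me3, so NEUROG1 was bivalent in 2 of 3 V16D/CTL and 0 of 3 V16D/H19 replicates.

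H3K4me3 at the NEUROG1 promoter had a lower mean fold in V16D/H19. The strongest fold was 7.59, 12.5 and 11.8 in V16D/CTL against 6.60, 7.64 and 4.31 in V16D/H19. The groups overlapped narrowly, through V16D/CTL replicate 1 and V16D/H19 replicate 2. The log2 difference was -0.79 (SE 0.338, limma adjusted p = 0.779), the only negative one of the 7 genes fitted. The width of the peak was 613, 684 and 626 bases in V16D/CTL against 769, 659 and 699 bases in V16D/H19, which overlapped.

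ATOH1, needed for intestinal secretory cells and cerebellar granule cells, lies on chromosome 4 (93828753 to 93830964). H3K27me3 covered 0, 693 and 0 bases of its window in V16D/CTL against 1157, 1195 and 1502 bases in V16D/H19. All V16D/H19 libraries were above all V16D/CTL libraries (means 231 ± 400.1 and 1285 ± 189, SD, n = 3 each, exact permutation p = 0.1). The peaks were small, at different places in different replicates, and weak, with a highest −log10 q of 1.31 in V16D/CTL replicate 2 and of 1.77, 1.82 and 1.82 in V16D/H19. A region joined by overlapping peaks of the V16D/H19 replicates ran over the gene body (chr4:93829285-93830531) and did not overlap the consensus H3K4me3 peak. Single replicates were bivalent in 1 of 3 V16D/CTL and 1 of 3 V16D/H19 cases. The promoter H3K4me3, whose strongest fold was 7.04, 13.7 and 7.25 in V16D/CTL against 11.7, 12.8 and 6.40 in V16D/H19, overlapped between the groups.

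ATOH1 was thus 1 of 8 genes with H3K27me3 cover higher in every V16D/H19 library, beside 2.24% of the 7240 genes with such a peak. None of the 8 was lower in every library, beside 16.1% of all genes. The median difference in cover was -947 bases over the 8 genes and -211 bases over all genes. Scaled to the length covered by each list, 9.61% of all genes were lower and 5.97% higher, and ATOH1 remained the only one of the 8 without overlap. This scaling moved the difference at NEUROG3 from -1766 to -29.6 bases, at NEUROG2 from -1218 to -20.7 bases and at NEUROD2 from 464 to 2658 bases.

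HES6, a bHLH factor that promotes neuronal differentiation, lies on chromosome 2 (238238267 to 238240038), with part of PER2 in its window. Its promoter H3K4me3 had a strongest fold of 63.3, 61.0 and 33.6 in V16D/CTL against 43.5, 69.1 and 53.6 in V16D/H19. The groups overlapped, with means of 52.6 ± 16.5 and 55.4 ± 12.9 (SD, n = 3 each, exact permutation p = 0.8). The V16D/CTL mean ranked above that of 59.8% of the 14462 genes with an H3K4me3 peak in all 6 libraries, whose median was 49.0. A smaller peak downstream of the gene's end was called in all 6 libraries with folds of 9.07 to 22.2.

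H3K4me3 at the other genes with this mark was low for an H3K4me3 promoter. The V16D/CTL mean of the strongest fold was 11.5 at ASCL2, 10.6 at NEUROG1, 12.5 at NEUROG2, 9.32 at ATOH1 and 10.9 at OLIG2. Each ranked above 3.2 to 5.7% of all genes fitted. NEUROD2 had 20.0, but its peak straddled the upstream edge of the window, with 404 to 498 bases inside it, and was nearest to the start of a neighbouring gene, PPP1R1B.

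No proneural gene passed a call rule for H3K4me3. Of the 7 genes with a peak, 0 were lower and 0 higher in covered length in every V16D/H19 library, beside 5.76% and 8.17% of 15424 genes. For the strongest fold, counted after the values were seen, 0 were lower and 0 higher, beside 3.94% and 7.07% of 14462 genes. The limma model called 0% of all genes lower and 0% higher at an adjusted p under 0.05. Unadjusted p-values under 0.05 were found for 1 of the 7 genes, NEUROG1, and for 910 genes, or 6.29%, overall. The median log2 difference was 0.18 over the 7 genes and 0.05 over all genes.

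**Figure D4:**
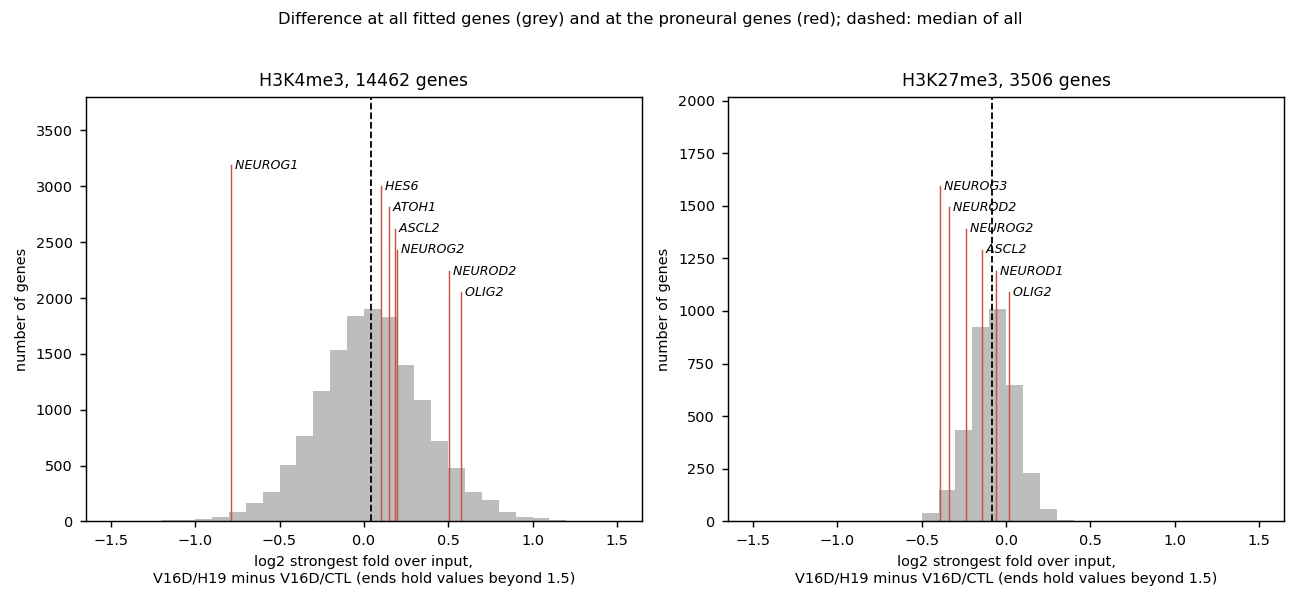
Number of genes (grey bars) by the log2 difference in strongest fold over input, V16D/H19 minus V16D/CTL, for H3K4me3 (left) and H3K27me3 (right), with the proneural genes as red lines and the median of all genes dashed. NEUROG1 lies at -0.79 for H3K4me3, and NEUROG3 and NEUROD2 lie at -0.39 and -0.34 for H3K27me3, where the median of all genes is -0.08.

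Among 12 other neural bHLH genes, 11 had H3K27me3 in the window, 3 were lower in cover in every V16D/H19 library and 0 were higher. BHLHE23 had 15969, 18584 and 16577 bases in V16D/CTL against 13405, 14566 and 13585 in V16D/H19. BHLHE22 had means of 15781 bases in V16D/CTL against 13173 in V16D/H19, and FERD3L had 4588 against 2857. For H3K4me3, 6 of the 12 had a peak, 0 were lower and 2 higher. These were the relatives of OLIG2, OLIG1 (means 1301 and 1476 bases) and OLIG3 (398 and 740 bases). No library had an H3K4me3 peak within 1 kb of the OLIG3 start.

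Of the partners and inhibitors, E-protein genes (TCF3, TCF4 and TCF12) had 0 of 3 without overlap in cover of either mark. The ID genes, whose products sequester E proteins, had H3K4me3 at all 4 promoters in all 6 libraries, and ID2 was lower in cover, with 6705, 6556 and 6006 bases in V16D/CTL against 5723, 5616 and 4898 in V16D/H19. Its strongest fold was higher instead, at 31.5, 27.4 and 32.3 against 39.8, 45.9 and 48.4. Among 8 HES and HEY genes, HES5 and HES7 were lower in H3K4me3 and HES7 and HEY2 in H3K27me3 cover of the window. No library had an H3K4me3 peak within 1 kb of the HES5 start or an H3K27me3 peak within 1 kb of the HES7 start. HEY2 had 19961, 20786 and 24955 bases of H3K27me3 in V16D/CTL against 15583, 12366 and 17480 in V16D/H19. The windows of HES5, HES7 and DLL3 each held the start of 1 other protein-coding gene.

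Of 5 Notch ligand genes, DLL3 was higher in H3K4me3 cover of the window (means 2186 and 2618 bases) and lower in H3K27me3 cover (2184 and 938 bases) in V16D/H19. No library had an H3K4me3 peak within 1 kb of the DLL3 start, and 1 had an H3K27me3 peak there. DLL3, an inhibitory ligand that is a surface marker of neuroendocrine tumours, had H3K27me3 folds of 4.37, 3.46 and 4.73 in V16D/CTL against 3.26, 3.02 and 3.26 in V16D/H19. DLL4 was lower in H3K27me3 cover (11174 and 8355 bases), and JAG1 lower in H3K4me3 cover (3256 and 2997 bases). Of 4 receptor genes, NOTCH3 was higher in H3K4me3 cover (2595 and 3092 bases). None of the genes of these 6 lists had an adjusted p under 0.05 in the limma model, and the share of groups without overlap over all genes is given above for each mark and direction.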

How the data were processed

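Sample titles gave the group and replicate number of each library, and the 6 input libraries entered only through peak calling. The authors aligned reads to hg38 (per the submitters' processing notes) and called peaks per library against that replicate's input with MACS2, narrow for H3K4me3 and broad for H3K27me3. Each deposited list gives, for every peak, a linear ratio to input, called the fold, together with −log10 p and q. The authors' 2 tables were made with DiffBind and ChIPseeker and hold, per site, a log2 concentration in each group, a fold change, a p-value and an FDR. The deposited log2 concentrations were used, and the comparison columns were not. Read counts and sequencing depth were not examined, and intervals of counting error are therefore not given. The part of depth in the peak lists, folds and q was not tested.

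Gene spans were RefSeq GRCh38.p14 protein-coding genes, with the strand from the RefSeq promoter table or, for 3832 genes including ASCL2 and OLIG2, from GENCODE by symbol. A strand was found for 98.19%. A peak counted for a window when it shared at least 1 base. Covered length and strongest fold were computed per library. Single values were compared by the two-sided exact permutation test, and log2 strongest folds by limma 3.58.1 in R 4.3.3 (trend, no pseudocount) over genes with a peak in all 6 libraries, so genes missing a peak in any library were not fitted and none was imputed. The fit was tested on simulated data. Genes were called without overlap when all libraries of one group lay beyond all of the other. All 9 genes were named, and of the related lists those without overlap in covered length, at most 3 per list and mark. The values of 1 marker gene are not reported here. The genes and lists were chosen with earlier results of these data known. Alternatives were a −log10 q of at least 5, lists of equal length, other flanks and overlap rules, scaling, median centring, a replicate block and leaving out each library. Figures were drawn with matplotlib 3.10.9 under Python 3.11.15.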

Additional observations from a re-analysis of the deposited data

How the results depend on the processing

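Peak lists carry no counts, a strongest fold depends on where a broad peak was cut, and 3 replicates limit the exact test to p = 0.1. With a −log10 q of at least 5, the mean number of genes with an H3K27me3 peak differed by -2.33 (2.67 in V16D/CTL, 0.333 in V16D/H19), for promoters and for windows alike, and 1 gene was lower and 0 higher in H3K27me3 cover without overlap, beside 17.7% and 0% of all genes with such a peak. With lists of equal length 1 was lower, beside 15.6%. With flanks of 50 kb, 3 were lower in H3K27me3 cover, beside 20.5%, and 2 higher in H3K4me3 cover, beside 8.04%. With median centring 1 gene, NEUROG1, was lower in H3K4me3 strongest fold, beside 6.04%, and the log2 difference in H3K27me3 at NEUROD1 turned from -0.057 to 0.017. The cause of these shifts was not tested. Without 1 library at a time, the number of genes without overlap in cover ranged for H3K4me3 from 0 to 1 lower and 0 to 2 higher (2 without V16D/CTL replicate 1), and for H3K27me3 from 0 to 2 lower (2 without V16D/CTL replicate 1, V16D/H19 replicate 1 or V16D/H19 replicate 3) and 1 to 2 higher (2 without V16D/H19 replicate 1). Over all genes these shares were 7.33 to 12.9% and 10.9 to 22.5% for H3K4me3, and 19.1 to 31% and 2.96 to 5.66% for H3K27me3. For the H3K4me3 strongest fold it ranged from 0 to 1 lower (NEUROG1 without V16D/CTL replicate 1 or V16D/H19 replicate 2, beside 6.77% and 10.3% of all genes) and 0 to 2 higher, with NEUROD2 and OLIG2 higher without V16D/CTL replicate 1 (15% of all genes) and ASCL2 and NEUROD2 without V16D/H19 replicate 3 (14.5%). For the H3K27me3 strongest fold it ranged from 3 to 4 lower, beside 23.2 to 25.7% of all genes. Groups that already lay apart stay apart when a library is left out, so these counts cannot fall. In the same way the log2 difference ranged for H3K4me3 from -0.035 to 0.463 at ATOH1, -0.192 to 0.266 at HES6, -0.035 to 0.548 at ASCL2 and 0.225 (without V16D/CTL replicate 2) to 0.88 (without V16D/CTL replicate 1) at OLIG2, and for H3K27me3 from -0.126 to 0.106 at OLIG2, -0.122 to 0.025 at NEUROD1 and -0.243 (without V16D/H19 replicate 2) to -0.013 (without V16D/H19 replicate 3) at ASCL2, none of them called. The numbers of proneural genes called by limma stayed at 0 in all alternatives run.

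The main comparison did not use the replicate numbers as pairs. For H3K4me3 the correlation of deviations was 0.02 to 0.043 between libraries of the same number and -0.034 to 0.008 between other numbers. There 6 of 6 libraries correlated best with their own number. For H3K27me3 it was -0.017 to 0.022 for the same number and -0.039 to 0.036 for other numbers, and 3 of 6 did so. With the replicate block, limma called 2 genes lower for H3K4me3 and 6 for H3K27me3, none of them proneural, against 0 without it. The block cannot change the H3K27me3 log2 difference of -0.391 at NEUROG3, because each replicate number occurs in both groups. Its limma adjusted p was 0.118 with the block against 0.0885 without it.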
